A study of Mus musculus with 18 samples.

Results

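The genes described here are those whose RNA level moved in one direction, relative to WT, in both PGRN knockout and 14-3-3ε knockout macrophages, after M1 and after M2 polarization. The cells are macrophages grown from bone marrow of C57BL/6 mice. Marrow cells were grown for 7 days in medium with 10% serum and 10 ng/ml M-CSF, the growth factor that drives monocyte and macrophage development, and were then stimulated for 18 h. The 6 groups were PGRN knockout M1, 14-3-3ε knockout M1 and WT M1, all given LPS at 100 ng/ml together with interferon gamma at 20 ng/ml, and PGRN knockout M2, 14-3-3ε knockout M2 and WT M2, all with 20 ng/ml IL-4. The labels call the 14-3-3ε knockout myeloid and the PGRN knockout a knockout without a tissue, and they name neither the Cre driver nor the alleles. Each group had 3 libraries, and all 18 of the 18 libraries entered a single contrast: the mean of the 4 knockout group means minus the mean of the 2 WT group means. The labels do not say whether the 3 libraries of a group came from separate mice or cultures, so p-values measure the spread between these samples only.

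Progranulin, encoded by Grn, is a secreted glycoprotein that also reaches the lysosome, where it is cut into granulins, and it binds TNF receptors. The protein 14-3-3ε, encoded by Ywhae, is an adaptor that docks on phosphorylated serine and threonine motifs of signalling proteins. Per the title of the series, the study set 14-3-3ε beside the TNF receptor TNFR2 in a signalling complex of macrophages. LPS with interferon gamma drives macrophages toward antigen presentation and inflammatory cytokines, and IL-4 drives them toward arginase, matrix turnover and repair functions.

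Depth ran from 5.16 to 105 (in units of 1e6 reads) per library, and the shallowest was a WT library (WT M1 replicate 1). Expression within WT groups was less alike than within knockout groups, with pairwise correlations across genes of 0.912 to 0.941 in WT M1 and 0.932 to 0.969 in WT M2, against 0.971 to 0.986 in the knockout groups; genes are not independent replicates, so this is a description. In WT M2 replicate 3, 7.82% of reads fell on genes resembling ribosomal RNA, in WT M1 replicate 2 it was 1.01%, and in the others at most 0.143%. Replicate 1 of WT and replicate 2 of the 14-3-3ε knockout stood apart in both polarizations by a high level of Xist, the RNA of the inactive X chromosome. Xist was at 1306 normalized counts in 14-3-3ε knockout M1 replicate 2 and 1302 in WT M1 replicate 1, and at most 39.1 in the other M1 libraries. It was at 3123 in the M2 14-3-3ε knockout replicate 2 and 963 in WT M2 replicate 1, and at most 67.0 in the other M2 libraries. The part of sex in the results was not tested. The 20 measured genes of the macrophage identity list, Csf1r and Emr1 among them, had reads in these libraries and together took 13722 to 28799 CPM (counts scaled to a library total of 1e6) in knockout M1 against 16989 to 25317 in WT M1. In M2 they took 7559 to 20794 CPM in knockout libraries against 10537 to 11091 in WT libraries.

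Of 21336 genes tested, 6887 passed the threshold of both knockouts against WT (32.3%; limma, Benjamini-Hochberg adjusted p under 0.05), 3809 higher and 3078 lower in the knockouts. Among them, 5132 (24.1% of genes tested) lay on one side of WT in all 4 knockout groups: 2808 higher and 2324 lower. At least a 2-fold difference in the mean was reached by 332 of the higher and 389 of the lower ones. The demand that each of the 4 comparisons pass by itself was met by 170 genes (0.797%), 93 higher (0.436%) and 77 lower (0.361%). Single comparisons with WT called 25.3% of genes in the M1 PGRN knockout, 21.3% in the M1 14-3-3ε knockout, 19.4% in the M2 PGRN knockout and 6.69% in the M2 14-3-3ε knockout. Leaving out 1 library moved the count of 170 to between 70 (without 14-3-3ε knockout M2 replicate 1) and 469 (without WT M1 replicate 2). The 6 knockout libraries and the 3 WT libraries did not overlap in M1, and again did not overlap in M2 in the same direction, for 876 genes (4.11%), 585 higher (2.74%) and 291 lower (1.36%). When the M1 and M2 libraries of a genotype and number were averaged into 1 value, 4485 genes passed both knockouts against WT, 3605 of them on one side in all 4 groups. The median difference over all genes tested was 0.02 on the log2 scale. PGRN knockout and 14-3-3ε knockout cells of a polarization are set against the same 3 WT libraries, so a WT library that is high or low for a gene moves both differences together. Without WT M1 replicate 1 and WT M2 replicate 1, 3606 genes lay on one side in all 4 groups, 2056 higher and 1550 lower.

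Each targeted gene was lowest in its own knockout. Grn had 497, 212 and 231 normalized counts in PGRN knockout M1 and 69306, 69903 and 66328 in the M1 14-3-3ε knockout, against 91070.0, 81989 and 91739 in WT M1. In M2, Grn had 24.4, 23.9 and 32.2 in the PGRN knockout and 26971, 27845 and 26102 in the 14-3-3ε knockout, against 30086, 29365 and 34556 in WT. The 14-3-3ε knockout libraries lay below all WT libraries in each polarization, by a log2 difference of -0.36 in M1 and -0.21 in M2, neither of which passed. Grn thus met the rule for a shared fall, with a mean log2 difference of -4.74 ± 0.14 (SE), through the PGRN knockout alone. Ywhae had 8542, 8815 and 8516 in the M1 PGRN knockout and 6214, 5191 and 5537 in the M1 14-3-3ε knockout, against 9859, 9021 and 9034 in WT M1. Its M2 levels were 7949, 7432 and 7792 in the PGRN knockout and 5088, 4362 and 5131 in the 14-3-3ε knockout, against 9015, 8203 and 8999 in WT. A substantial level of Ywhae RNA remained in the 14-3-3ε knockout, at log2 differences of -0.72 in M1 and -0.85 in M2; the small differences of -0.11 and -0.18 in the PGRN knockout did not pass.

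Among genes with a mean of at least 5 CPM, no overlap between knockout and WT libraries in either polarization and a symbol that is not a predicted or pseudogene name, the largest shared rise was Hal, which encodes histidine ammonia-lyase, the enzyme that begins the breakdown of histidine and is known from liver and skin. Hal had 808, 1447 and 826 normalized counts in PGRN knockout M1 and 199, 62.4 and 133 in the M1 14-3-3ε knockout, against 22.3, 1.503 and 3.05 in WT M1. In M2 there were 498, 1088 and 503 in the PGRN knockout and 782, 178 and 525 in the 14-3-3ε knockout, against 3.99, 3.63 and 6.18 in WT. All 12 knockout libraries were far above all 6 WT libraries, in which few of its reads were counted: 7 reads over the 3 WT M1 libraries and 15 over the 3 WT M2 libraries. The log2 difference was 6.18 ± 0.45 (adjusted p = 1.0e-06), and each of the 4 comparisons passed. Hal was higher in PGRN knockout than in 14-3-3ε knockout cells by 1.84 ± 0.52 (adjusted p = 0.014).

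Nlrp1b rose in each of the 4 comparisons. It encodes an inflammasome sensor that activates caspase-1 and differs between mouse strains. Its levels were 59.3, 62.3 and 87.4 normalized counts in PGRN knockout M1 and 340.4, 357 and 314 in the M1 14-3-3ε knockout, against 31.2, 45.1 and 51.8 in WT M1. They were 119, 87.7 and 115 in the M2 PGRN knockout and 352, 356 and 311 in the M2 14-3-3ε knockout, against 61.2, 71.4 and 62.9 in WT M2. The 3 genotypes formed 3 separate levels in each polarization, and the step was far larger in the 14-3-3ε knockout, with PGRN knockout minus 14-3-3ε knockout at -1.97 ± 0.13 (adjusted p = 9.6e-09). The shared difference was 1.69 ± 0.12 (adjusted p = 1.2e-07).

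Serpina3n, which encodes a secreted inhibitor of serine proteases induced in acute inflammation, rose by 2.59 ± 0.38 (adjusted p = 2.1e-04). It had 67.5, 52.3 and 35.8 in the M1 PGRN knockout and 543, 437 and 185 in the M1 14-3-3ε knockout, against 4.46, 22.5 and 33.5 in WT M1. With IL-4 it had 76.7, 60.0 and 79.7 in the PGRN knockout and 270.4, 249 and 86.5 in the 14-3-3ε knockout, against 15.97, 23.6 and 41.2 in WT. The PGRN knockout libraries lay just above WT and did not pass by themselves in either polarization, while the 14-3-3ε knockout passed in both.

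A pair of endosomal receptors for RNA moved together. Tlr8 had 1494, 1198 and 1612 in the M1 PGRN knockout and 1589, 1423 and 1559.9 in the M1 14-3-3ε knockout, against 143, 745 and 655 in WT M1. Its M2 levels were 2278, 2046 and 2224 in the PGRN knockout and 2320.1, 1547 and 2341 in the 14-3-3ε knockout, against 708, 949 and 826 in WT. The 2 knockouts sat at one level, with a difference between them of 0.00 ± 0.32, and the shared rise was 1.60 ± 0.27 (adjusted p = 8.5e-04). Tlr7, its neighbour on the X chromosome and named here after its values were seen, rose by 0.96 ± 0.11 (adjusted p = 3.0e-05), with 2545 to 3778 in knockout M1 against 1039 to 1842 in WT M1 and 1137 to 2114 in knockout M2 against 776 to 923 in WT M2. Tlr7 passed in each of the 4 comparisons, but not once the length trend described below was removed.

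Slfn5 and Tagap are both known from lymphocytes and activated myeloid cells. Slfn5, of the Schlafen family of interferon-induced genes, had 6549, 5481 and 6491 in the M1 PGRN knockout and 5259, 7161 and 5879.9 in the M1 14-3-3ε knockout, against 571, 3695 and 3127 in WT M1. It had 1217, 1471 and 1258 in the M2 PGRN knockout and 1164, 887 and 863 in the M2 14-3-3ε knockout, against 409.8, 471 and 401 in WT M2, and rose by 1.55 ± 0.30 (adjusted p = 0.0020). Tagap, which encodes a GTPase-activating protein of T cell activation, had 694, 515 and 708 in the M1 PGRN knockout and 578, 682 and 447 in the M1 14-3-3ε knockout, against 424, 431 and 393 in WT M1. In M2 there were 268, 277 and 313 in the PGRN knockout and 128, 152 and 117 in the 14-3-3ε knockout, against 25.3, 30.2 and 63.9 in WT. The M1 libraries nearly touched while the M2 libraries were well apart, and Tagap rose by 1.44 ± 0.15 overall (adjusted p = 9.3e-06).

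The other named rises were Zfp871, a zinc finger protein gene, Lmbrd2, which encodes a membrane protein, Ulbp1, which encodes a ligand of the NKG2D receptor of natural killer cells, Slc8a1, the sodium-calcium exchanger, Lrrc8b, a subunit of volume-regulated anion channels, Aak1, a kinase of clathrin-coated vesicles, Fgd5, an exchange factor for Cdc42 known from endothelium, and Ciita, described below with its target genes. Their log2 differences lay between 1.34 and 1.74 with adjusted p between 3.8e-04 and 0.0093. WT M1 replicate 1 was far below the other WT M1 libraries for 9 of the 14 rises: in Zfp871, for example, it had 4.46 against 84.1 and 61.0 in replicates 2 and 3. In that library, the shallowest, 1 read equals 4.46 normalized counts. Serpina3n, Zfp871, Lmbrd2 and Ulbp1 each had 1 read there. Without that library the log2 differences were 2.19 for Serpina3n, 1.11 for Zfp871, 1.14 for Lmbrd2, 1.22 for Tlr8, 1.12 for Slfn5, 1.001 for Ulbp1, 0.88 for Slc8a1, 0.95 for Lrrc8b and 0.99 for Aak1, and all 9 still passed. The library's low levels of long transcripts are described below.

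**Figure D1:**
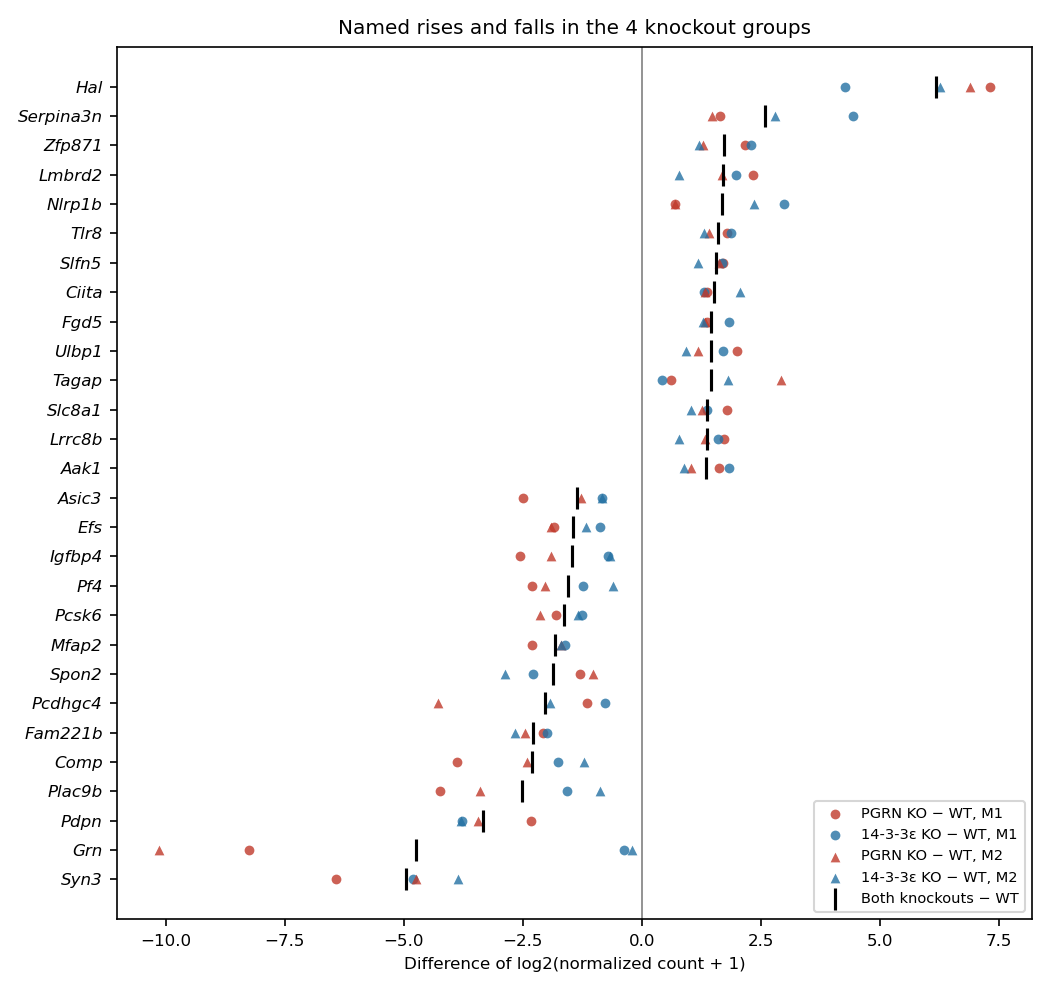
Differences from WT of the same polarization, as log2 of the normalized count plus 1 (x axis), for the 14 largest rises and 14 largest falls (y axis) among genes of at least 5 CPM whose knockout and WT libraries did not overlap, predicted genes and pseudogenes left out; red marks the PGRN knockout, blue the 14-3-3ε knockout, circles M1, triangles M2 and black bars the mean over all 4. Hal stands at 6.18 and Pdpn at -3.34, with all 4 points far from 0, while Grn at -4.74 owes its place to the PGRN knockout and Nlrp1b lies farther from 0 in the 14-3-3ε knockout.

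The upstream bases of 5 of these genes are shown because they hold, among the genes named by that rule, the largest rise (Hal), the largest fall that passed in each comparison (Pdpn), the gene with a difference between M1 and M2 (Tagap), an interferon-induced gene (Slfn5) and a fall with the same start element as Hal (Igfbp4). Each is the 250 bases before a transcription start from RefSeq (GRCm38.p6), 5′ to 3′ on the gene's strand: Hal chr10:93488518-93488767 (+), Tagap chr17:7925750-7925999 (+), Igfbp4 chr11:99040994-99041243 (+), Slfn5 chr11:82951852-82952101 (+) and Pdpn chr4:143299565-143299814 (−).
Hal: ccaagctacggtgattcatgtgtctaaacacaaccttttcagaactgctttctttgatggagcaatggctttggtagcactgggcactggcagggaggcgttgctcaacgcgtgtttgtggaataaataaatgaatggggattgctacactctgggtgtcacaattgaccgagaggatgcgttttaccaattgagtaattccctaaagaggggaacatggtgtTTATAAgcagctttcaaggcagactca
Tagap: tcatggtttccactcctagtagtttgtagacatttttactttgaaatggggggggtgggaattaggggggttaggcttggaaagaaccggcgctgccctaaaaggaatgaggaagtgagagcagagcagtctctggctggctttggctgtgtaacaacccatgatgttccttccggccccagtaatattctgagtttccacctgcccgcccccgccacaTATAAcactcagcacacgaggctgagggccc
Igfbp4: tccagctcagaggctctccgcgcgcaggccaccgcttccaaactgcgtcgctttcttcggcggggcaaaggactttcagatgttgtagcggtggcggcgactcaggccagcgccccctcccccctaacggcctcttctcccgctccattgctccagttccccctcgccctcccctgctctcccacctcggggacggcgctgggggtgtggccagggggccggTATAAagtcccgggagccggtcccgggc
Slfn5: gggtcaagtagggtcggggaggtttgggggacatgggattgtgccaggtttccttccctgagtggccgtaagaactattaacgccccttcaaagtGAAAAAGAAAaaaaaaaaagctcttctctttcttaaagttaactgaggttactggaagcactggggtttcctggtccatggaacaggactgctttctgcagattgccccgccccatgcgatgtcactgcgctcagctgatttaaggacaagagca
Pdpn: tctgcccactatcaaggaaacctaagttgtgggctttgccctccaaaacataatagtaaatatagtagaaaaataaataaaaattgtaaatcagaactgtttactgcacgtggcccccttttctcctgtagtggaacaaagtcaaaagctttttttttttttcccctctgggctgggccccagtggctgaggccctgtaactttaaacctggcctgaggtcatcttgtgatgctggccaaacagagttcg
Capitals mark TATAA, the core of a TATA box, on either strand (its reverse complement is TTATA, and both share bases in Hal), and in Slfn5 the letters GAAA, any 2 bases, GAAA, the core of an interferon-stimulated response element, whose reverse complement is TTTC, any 2 bases, TTTC. The TATAA match nearest the start begins 26 bases before it in Hal, 31 in Tagap and 28 in Igfbp4, and the match of the spaced GAAA pair begins 155 bases before it in Slfn5; Pdpn holds no TATAA in this window. The table had promoters for 23 of the 28 named rises and falls, 27 promoters in all, and none for Ciita, Comp, Pcdhgc4, Spon2 or Syn3. TATAA occurred in 5 of those 27 promoters, against 22.8% of all 32851 promoters of the same length, and the spaced GAAA pair in 2 of 27, against 2.98%. These are matches of letters in a window, not sites of binding.

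**Figure D2:**
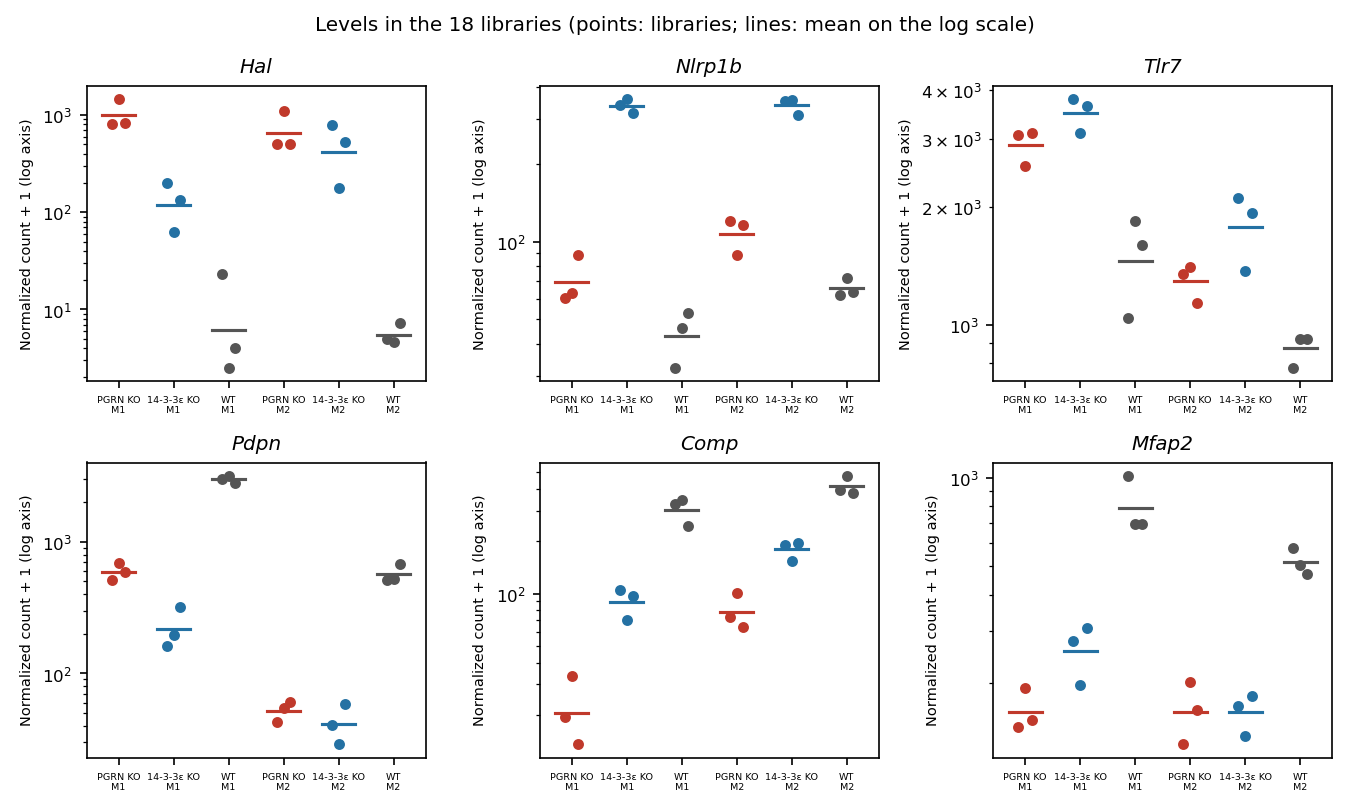
Normalized count plus 1 (log axis) of 6 genes in each library, with the PGRN knockout in red, the 14-3-3ε knockout in blue and WT in grey, M1 on the left and M2 on the right of each panel; lines are means on the log scale of 3 libraries. The 12 knockout libraries lie above WT for Hal, Nlrp1b and Tlr7 and below it for Pdpn, Comp and Mfap2 in both polarizations.

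The clearest shared fall was Pdpn, which encodes podoplanin, a mucin-like surface glycoprotein that binds CLEC-2 on platelets and is induced in inflammatory macrophages. Pdpn had 509, 689.8 and 589 normalized counts in PGRN knockout M1 and 162, 195 and 319 in the M1 14-3-3ε knockout, against 3009.9, 3159.8 and 2770.5 in WT M1. After IL-4 the levels were 42.1, 53.3 and 59.8 in the PGRN knockout and 39.9, 27.9 and 57.6 in the 14-3-3ε knockout, against 514, 524 and 677 in WT. WT replicates were tight and every knockout library was several-fold below them, with a log2 difference of -3.34 ± 0.15 (a fall to a 10.1-fold lower level, adjusted p = 1.6e-09), and each comparison passed. The M1 fall was deeper in the 14-3-3ε knockout, and PGRN knockout minus 14-3-3ε knockout was 0.90 ± 0.18 over both polarizations (adjusted p = 7.7e-04).

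Pf4, which encodes platelet factor 4, a chemokine of megakaryocytes that macrophages also make, fell in each comparison. It had 432, 525 and 384 in the M1 PGRN knockout and 1057, 728 and 1027 in the M1 14-3-3ε knockout, against 2649, 1881 and 2115 in WT M1. Its M2 levels were 452, 572 and 457 in the PGRN knockout and 1229.7, 1416 and 1295 in the 14-3-3ε knockout, against 1970.4, 1903 and 2132 in WT. The genotypes again formed 3 separate levels, here lowest in the PGRN knockout (PGRN knockout minus 14-3-3ε knockout -1.24 ± 0.11, adjusted p = 1.8e-07), and the shared difference was -1.55 ± 0.09 (adjusted p = 2.6e-08).

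Among the named falls that encode secreted proteins, 4 were grouped here after their values were seen, apart from Grn and Pf4 above. These were Comp, the cartilage oligomeric matrix protein, Spon2, a secreted matrix protein that promotes phagocytosis, Mfap2, a microfibril protein, and Igfbp4, a binding protein of insulin-like growth factors. Comp had 18.4, 32.4 and 12.6 in the M1 PGRN knockout and 104, 69.4 and 95.2 in the M1 14-3-3ε knockout, against 326, 344 and 244 in WT M1. It had 72.7, 99.1 and 62.8 in the M2 PGRN knockout and 189, 153 and 195 in the M2 14-3-3ε knockout, against 394, 474 and 378 in WT M2, for a difference of -2.31 ± 0.16 (adjusted p = 1.6e-07). Mfap2 had 141, 192 and 149 in the M1 PGRN knockout and 276, 197 and 307 in the M1 14-3-3ε knockout, against 1012, 693 and 695 in WT M1. In M2 there were 123, 202 and 161 in the PGRN knockout and 167, 132 and 179.7 in the 14-3-3ε knockout, against 575, 504 and 469 in WT, for a difference of -1.83 ± 0.13 (adjusted p = 1.4e-07). Comp was lowest in the PGRN knockout in both polarizations, while Mfap2 did not pass the test between the 2 knockouts (-0.34 ± 0.15, adjusted p = 0.097). Spon2 went the other way between them, lower in the 14-3-3ε knockout: 108 to 174 in the M1 PGRN knockout and 49.3 to 80.4 in the M1 14-3-3ε knockout, against 289.8 to 378 in WT M1. Spon2 fell by 1.87 ± 0.18 on the log2 scale (adjusted p = 3.7e-06). Igfbp4, the most abundant of the 4, had 3477 to 7089 in the M1 PGRN knockout and 13099 to 22504 in the M1 14-3-3ε knockout, against 26476 to 30402 in WT M1, and fell by 1.46 ± 0.16 (adjusted p = 1.7e-05), with the 14-3-3ε knockout alone not past the threshold in either polarization.

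These genes are also made by stromal cells, and the cultures held stromal RNA in every library. The summed level of the 13 stromal markers, Col1a1 and Sparc among them, was 14062 to 39771 CPM in knockout M1 against 17996 to 30827 in WT M1, and 13784 to 38132 CPM in knockout M2 against 19648 to 30456 in WT M2. Of the 13, none rose and 3 fell (Acta2, Lum and Cxcl12), beside 17.9% of all genes tested passing higher and 14.4% passing lower. Of the 3, 2 lay on one side of WT in all 4 groups. Acta2 fell in the PGRN knockout alone, at -1.40 in M1 and -1.02 in M2 against 0.46 and 0.34 in the 14-3-3ε knockout. Col1a1 did not pass (-0.13 ± 0.12, adjusted p = 0.46) and was higher in 14-3-3ε knockout than in PGRN knockout libraries. The part of stromal content in the falls was not tested. In bulk RNA, fewer cells of a type and less RNA per cell cannot be told apart.

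Of the other named falls, Pcsk6, a proprotein convertase, fell by 1.63 ± 0.20 (adjusted p = 3.0e-05) and Asic3, an acid-sensing ion channel, by 1.37 ± 0.13 (adjusted p = 2.5e-06), both in each of the 4 comparisons. Efs, a Cas-family adaptor, fell by 1.45 ± 0.20 (adjusted p = 8.4e-05) and passed in 3 of them. Plac9b fell by 2.52 ± 0.23 (adjusted p = 6.0e-06), but it has a near-identical copy, Plac9a, so its reads could be split between the copies. The remaining 3 rest on uneven WT libraries or on shared sequence. Syn3, a synapsin gene whose body overlaps Timp3 on the opposite strand, had 0 to 16.4 in knockout M1 against 1445, 43.6 and 323 in WT M1 and 0 to 6.78 in knockout M2 against 33.3, 15.7 and 441 in WT M2 (-4.95 ± 0.84, adjusted p = 6.5e-04). Fam221b had 51.7 to 96.3 in all knockout libraries against 397, 732 and 165 in WT M1 and 118, 99.2 and 3952 in WT M2; its difference of -2.29 ± 0.63 (adjusted p = 0.014) was -1.43 without WT M2 replicate 3 and -1.18 without both libraries rich in ribosomal RNA-like reads. Pcdhgc4, with a difference of -2.03 ± 0.41 (adjusted p = 0.0024), shares exons with the other genes of the gamma protocadherin cluster. No label says whether the counting used strand, so reads of overlapping genes cannot be told apart.

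The shared shift was graded by transcript length. Among 10500 protein-coding genes of at least 5 CPM, the median log2 difference of both knockouts against WT was -0.33 for the 397 genes whose longest transcript is under 1000 bases, -0.18 for 1598 genes from 1000 to under 2000 bases, 0.15 for 2611 genes from 4000 to under 6000 bases and 0.29 for 619 genes of 8000 bases and over. Genes lower in all 4 knockout groups made up 60.5% of the shortest class and 1.78% of the longest, and genes higher in all 4 made up 1.76% of the shortest and 52.3% of the longest. Each of the 4 comparisons with WT showed the gradient in the same direction. From the shortest to the longest class, M1 medians ran from -0.24 to 0.20 in the PGRN knockout and from -0.43 to 0.36 in the 14-3-3ε knockout. In M2 they ran from -0.29 to 0.32 in the PGRN knockout and from -0.35 to 0.31 in the 14-3-3ε knockout. PGRN knockout minus 14-3-3ε knockout had smaller medians, 0.13 for the shortest and -0.03 for the longest class. Per library, long transcripts (6000 bases and over) minus short ones (under 1000 bases), relative to the mean of the polarization, were 0.06, 0.00 and 0.10 in the M1 PGRN knockout and 0.27, 0.49 and 0.31 in the M1 14-3-3ε knockout, against -0.999, 0.10 and -0.32 in WT M1. In M2 they were 0.19, 0.24 and 0.15 in the PGRN knockout and 0.30, 0.14 and 0.18 in the 14-3-3ε knockout, against -0.73, -0.15 and -0.34 in WT. The 2 lowest libraries were WT M1 replicate 1 and WT M2 replicate 1, and WT M1 replicate 2 overlapped the knockouts. Length and genotype cannot be told apart in these libraries, so counts are also given after a smooth trend on transcript length was removed from each library, a step added after the data were seen. Then 5502 genes passed both knockouts against WT (25.8%; 13% higher and 12.8% lower), 3711 (17.4%) lay on one side in all 4 groups, 1814 higher (8.5%) and 1897 lower (8.89%), 2830 of them among the 5132 above, and 95 passed in each comparison (0.445%), 69 of them among the 170. Tlr7, Pf4, Asic3, Ciita, Scd2, Gbp7, Ccl2 and Ccl7, which passed in each comparison as normalized by the authors, then no longer did so. Hal, Nlrp1b, Pdpn, Pcsk6, Scd1 and Trim30a still passed in each comparison. All 28 named rises and falls still passed both knockouts against WT, with differences of 1.01 to 6.02 and of -5.08 to -1.24. They had been chosen for large differences without overlap in the same libraries, so this says little of the other genes.

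**Figure D3:**
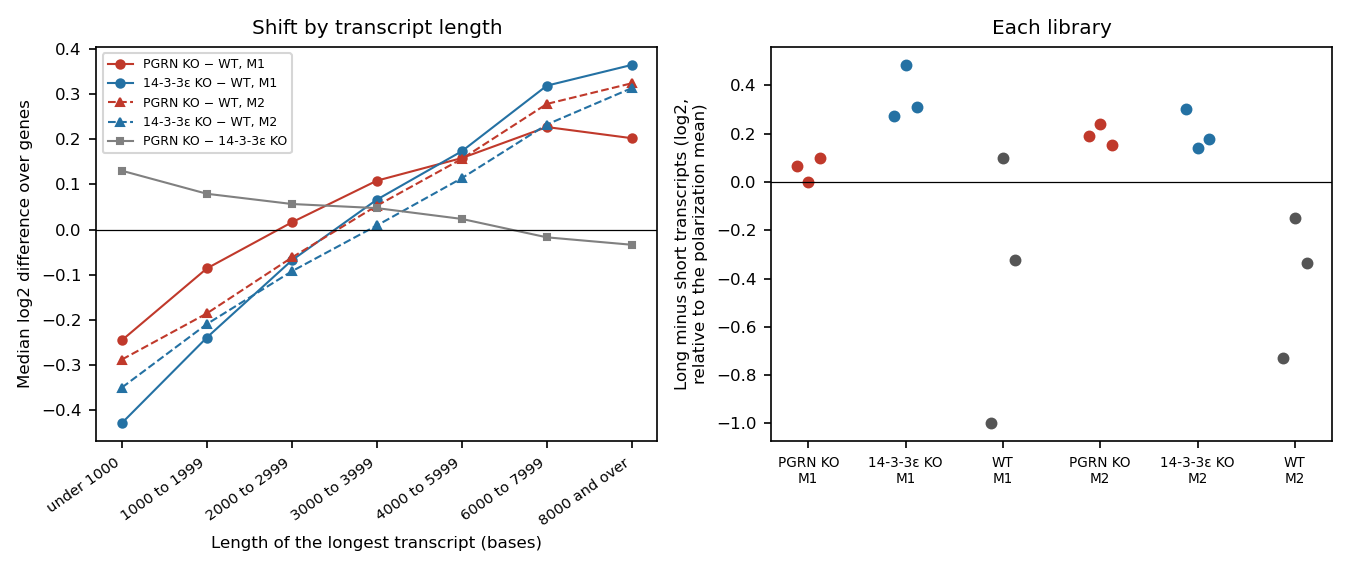
Left, the median log2 difference (y axis) of protein-coding genes by length of the longest transcript in bases (x axis), for each knockout against WT and, in grey, for PGRN knockout minus 14-3-3ε knockout. Right, long minus short transcripts in each library (log2), with the PGRN knockout in red, the 14-3-3ε knockout in blue and WT in grey; WT libraries reach down to -0.999 in M1 and -0.73 in M2, and the knockout libraries lie between 0.00 and 0.49.

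Gene groups of macrophage biology were read from lists. Each count below is of genes that passed both knockouts against WT, beside 17.9% of all genes tested passing higher and 14.4% passing lower, and a count of genes on one side of WT in all 4 groups stands beside 13.2% higher and 10.9% lower over all genes tested.

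MHC class II molecules present peptides to CD4+ T cells, and their genes are switched on by the transactivator CIITA. Ciita rose in each of the 4 comparisons: it had 32.7, 12.5 and 31.6 in the M1 PGRN knockout and 37.3, 28.2 and 10.6 in the M1 14-3-3ε knockout, against 8.92, 7.51 and 9.14 in WT M1. These WT M1 values rest on only 10 reads over the 3 libraries, so the size of the M1 rise is uncertain. Its M2 libraries had 342, 305 and 405 in the PGRN knockout and 1088, 498 and 348 in the 14-3-3ε knockout, against 172, 119 and 127 in WT. The groups did not overlap, which the rule for named genes required. The difference was 1.52 ± 0.27 (adjusted p = 7.9e-04), which missed the threshold only with precision weights on the recovered reads (1.64, adjusted p = 0.075). Of the 12 class II genes measured, 7 rose, 6 of them in all 4 groups, none fell and 5 did not pass, with a list median of 0.60. With the length trend removed, 10 rose, 8 of them in all 4 groups, and the median was 0.79. H2-Aa, which encodes an alpha chain, had 2017, 1922 and 2022 in the M1 PGRN knockout and 7220.4, 4407 and 2854 in the M1 14-3-3ε knockout, against 2194, 1181 and 1167 in WT M1. Its M2 levels were 3025, 2649 and 3205 in the PGRN knockout and 14986, 6577 and 3863 in the 14-3-3ε knockout, against 2348, 1265 and 1291 in WT. WT replicate 1 overlapped the PGRN knockout in M1, and replicate 1 of the 14-3-3ε knockout was the highest library in both polarizations. H2-Aa rose by 1.304 ± 0.27 (adjusted p = 0.0030), H2-Eb1 by 1.26 ± 0.28 (adjusted p = 0.0042) and H2-Ab1 by 0.93 ± 0.26 (adjusted p = 0.014). All 3 chains were lower in PGRN knockout than in 14-3-3ε knockout cells, by -1.24 ± 0.32 for H2-Aa (adjusted p = 0.0083). Of 10 dendritic cell markers, 4 rose, among them Flt3 and Zbtb46, and Bst2 fell, and the summed level of the list was 1557 to 1953 CPM in knockout M1 against 1916 to 3904.5 in WT M1 and 104 to 149 CPM in knockout M2 against 130 to 178 in WT M2. The part of dendritic cells in the class II rise was not tested.

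Genes of cholesterol and fatty acid handling rose in number. Of 25 genes of cholesterol synthesis and uptake, 16 rose, 13 of them in all 4 groups, and 2 fell in all 4. The test between the knockouts was passed by 17 of the 25, beside 30.8% of all genes tested. The list median of PGRN knockout minus 14-3-3ε knockout was 0.48. Insig1, which holds back the SREBP activators of this pathway, rose by 0.71 ± 0.09 (adjusted p = 6.0e-05) and Sc5d, a late enzyme of sterol synthesis, by 0.57 ± 0.08 (adjusted p = 1.5e-04). Both overlapped WT in the M2 14-3-3ε knockout: Insig1 at 1641 to 2185 against 1563 to 1865, Sc5d at 561 to 658 against 503 to 685. Hmgcs1, an early enzyme of the same pathway, fell by 0.50 ± 0.07 (adjusted p = 1.3e-04), with 1029 to 1544 in knockout M1 against 1683 to 1743 in WT M1. Of 18 genes of the LXR and lipid list, 9 rose, 7 of them in all 4 groups, and none fell. The test between the knockouts was passed by 14 of the 18, with a list median of 0.96 for PGRN knockout minus 14-3-3ε knockout. The stearoyl-CoA desaturases Scd1 and Scd2, which make monounsaturated fatty acids, passed in each comparison. Scd2 had 6076, 6487 and 6664 in the M1 PGRN knockout and 7534, 6333 and 6349 in the M1 14-3-3ε knockout, against 2639.8, 4109 and 3752 in WT M1. Its M2 levels were 18499, 19756 and 18925 in the PGRN knockout and 17070.5, 13107 and 15913 in the 14-3-3ε knockout, against 11277, 10806 and 9765 in WT. No knockout library reached into the WT range, and Scd2 rose by 0.81 ± 0.08 (adjusted p = 5.9e-06) and Scd1 by 0.82 ± 0.09 (adjusted p = 1.7e-05). Fasn, the fatty acid synthase, rose by 0.70 ± 0.09 (adjusted p = 5.3e-05), and Abcg1, a cholesterol exporter, by 0.80 ± 0.05 (adjusted p = 1.1e-07), mostly through the PGRN knockout (1.65 in M1 and 1.04 in M2, against 0.31 and 0.20 in the 14-3-3ε knockout).

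In the interferon lists, more genes rose than fell. Of 34 genes of the type I interferon list, 17 rose and 2 fell, with 10 and 1 on one side in all 4 groups. Of 30 interferon gamma genes, 12 rose and 1 fell, with 8 and 1 on one side in all 4. Gbp9, a guanylate-binding protein of host defence, rose by 1.24 ± 0.14 (adjusted p = 1.3e-05), with 1408 to 1923 in knockout M1 against 718 to 1049 in WT M1 and 35.6 to 122 in knockout M2 against 21.8 to 34.0 in WT M2. Trim30a rose by 0.52 ± 0.05 (adjusted p = 3.6e-06) and Gbp7 by 1.02 ± 0.16 (adjusted p = 3.1e-04), both in each comparison. Xaf1 met the threshold through the 14-3-3ε knockout only, with differences of 1.22 in M1 and 2.47 in M2 against 0.00 and 0.02 in the PGRN knockout.

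Of 40 NF-kB targets, 12 rose and 8 fell, with 9 and 4 on one side in all 4 groups. The monocyte chemoattractants Ccl2 and Ccl7, neighbours in one chemokine cluster, fell in each comparison. Ccl7 had 7500.3, 11969.9 and 6158 in the M1 PGRN knockout and 12105, 10134 and 12765 in the M1 14-3-3ε knockout, against 24543, 17934 and 17351 in WT M1. It had 2766, 2278 and 2481 in the M2 PGRN knockout and 3544, 3209.6 and 3337 in the M2 14-3-3ε knockout, against 4729, 6330.0 and 8039 in WT M2, a fall of 1.06 ± 0.13 (adjusted p = 5.7e-05), beside 0.76 ± 0.10 for Ccl2 (adjusted p = 4.7e-05). Tnfaip2 rose by 0.67 ± 0.05 (adjusted p = 4.7e-07) and Malt1, a protease of NF-kB activation, by 0.71 ± 0.08 (adjusted p = 2.1e-05). In M2, Tnfaip2 had 4314 to 4654 in the PGRN knockout, while the 14-3-3ε knockout overlapped WT (2188 to 2535 against 2178 to 2388). Of 28 M1 markers 6 rose and 2 fell, and of 36 M2 markers 7 rose and 7 fell. Arg1, the arginase that defines IL-4-stimulated mouse macrophages, had 10640.2, 10322 and 9184 in the M2 PGRN knockout and 12288, 12444 and 11169 in the M2 14-3-3ε knockout, against 20598, 25006 and 28534 in WT M2. It was low in M1, with 23.1 to 75.1 in knockout libraries against 73.1 to 159 in WT libraries, and fell by 1.33 ± 0.25 (adjusted p = 0.0015). Clec7a, the beta-glucan receptor dectin-1, rose by 0.94 ± 0.10 (adjusted p = 5.9e-06), but its 14-3-3ε knockout difference in M2 was -0.09. In the TNF and progranulin list, 10 of 25 rose and 1 fell, with Sort1, the sortilin receptor of progranulin, at 0.63 ± 0.07 (adjusted p = 7.1e-06) although its 14-3-3ε knockout difference in M2 was -0.07; with the length trend removed 6 rose and none fell. The genes of TNFR2 (Tnfrsf1b, 0.09 ± 0.07, adjusted p = 0.36) and TNFR1 (Tnfrsf1a, -0.08 ± 0.04, adjusted p = 0.13) did not pass.

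Of 46 cytosolic ribosomal protein genes, 36 fell, all 36 on one side in all 4 groups, none rose, 8 passed in each comparison, and the list median was -0.41. Rpl3 had 9720.1, 9886 and 10068 in the M1 PGRN knockout and 5223, 4594 and 4430.1 in the M1 14-3-3ε knockout, against 13065, 11684 and 11472 in WT M1. The M2 values were 16468, 16294 and 16882 in the PGRN knockout and 6331, 6542 and 6687 in the 14-3-3ε knockout, against 21611, 18099 and 20449 in WT. Rpl3 was much lower in the 14-3-3ε knockout than in the PGRN knockout (PGRN knockout minus 14-3-3ε knockout 1.20 ± 0.06, adjusted p = 1.6e-10), and fell by 0.88 ± 0.05 against WT (adjusted p = 7.3e-09). Rplp0 fell by 0.64 ± 0.05 (adjusted p = 7.0e-07) and Rpl24 by 0.62 ± 0.09 (adjusted p = 8.6e-05). With the length trend removed, 25 of 46 fell, 23 of them in all 4 groups, 3 rose, and the median was -0.25; without WT M1 replicate 1 and WT M2 replicate 1, 33 fell, none rose, and the median was also -0.25. Of 32 genes of oxidative phosphorylation, 20 fell and 1 rose, with a median of -0.22. With the length trend removed 10 fell and 5 rose with a median of -0.01, and without the 2 WT libraries 7 fell. Of 24 genes of splicing and RNA processing, 12 fell and 4 rose, and with the length trend removed 13 fell and 1 rose.

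**Figure D4:**
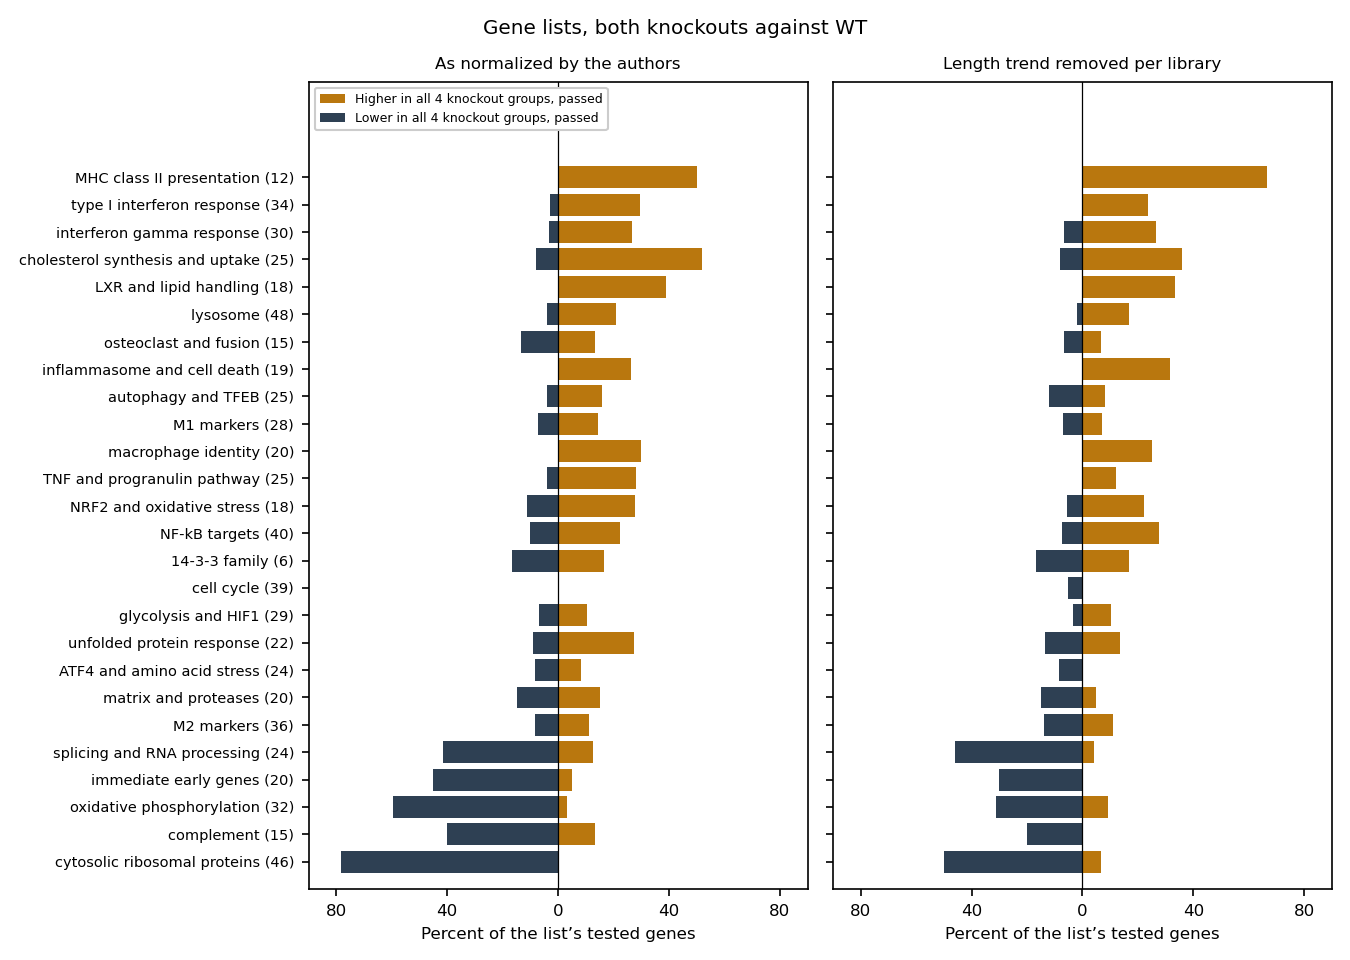
Percent of each list's tested genes (x axis; number of genes in brackets) that passed both knockouts against WT and were higher (orange, to the right) or lower (dark, to the left) in all 4 knockout groups, with the values as normalized by the authors (left panel) and after removal of the length trend (right panel). MHC class II has 8 of 12 genes higher on the right, against 6 of 12 on the left, and oxidative phosphorylation drops to 10 of 32 lower, against 19 of 32 on the left.

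Of 48 lysosome genes 29 rose and 2 fell, but 10 and 2 were on one side in all 4 groups, and 41 passed the test between the knockouts: Psap, the partner of progranulin in lysosomal transport, differed from WT by 1.33 in M1 and 1.08 in M2 in the PGRN knockout, against -0.23 and -0.24 in the 14-3-3ε knockout. Of 25 autophagy and TFEB genes 14 rose and 2 fell, with 4 and 1 on one side in all 4, and 23 passed the test between the knockouts. That test was passed by 30.8% of all genes tested. Of 20 immediate early genes 11 fell and 1 rose, with 9 and 1 on one side in all 4. Klf2 was at -0.76 ± 0.11 (adjusted p = 1.4e-04) and Ier3 at -0.56 ± 0.08 (adjusted p = 1.6e-04). Of 15 complement genes 8 fell and 3 rose, with 6 and 2 on one side in all 4, and without the 2 WT libraries 2 fell and 2 rose. Of 19 inflammasome and cell death genes 11 rose, 5 of them in all 4 groups, none fell, and 15 passed the test between the knockouts. Among the rises was Nlrc4 at 0.84 ± 0.08 (adjusted p = 3.3e-06). Of 39 cell cycle genes 1 fell (Birc5, -0.43 ± 0.15, adjusted p = 0.040) and none rose. Glycolysis and HIF1 (7 rose and 6 fell of 29), the unfolded protein response (7 and 8 of 22), ATF4 targets (6 and 3 of 24), matrix and protease genes (6 and 5 of 20), NRF2 targets (9 and 3 of 18), and osteoclast and fusion genes (5 and 3 of 15) had members in both directions. Of 20 macrophage identity genes 10 rose, 6 of them in all 4 groups, 1 fell, and 15 passed the test between the knockouts. Without the 2 WT libraries 5 of these identity genes rose and none fell. Of the 6 14-3-3 family genes, Ywhae left out, 2 rose and 1, Sfn, fell (-0.97 ± 0.15, adjusted p = 2.1e-04), and without the 2 WT libraries none rose.

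Neutrophil markers summed to 57.8 to 218 CPM in knockout M1 against 160 to 363 in WT M1. In M2 they summed to 49.2 to 228 CPM in knockout libraries against 113 to 422 in WT libraries, and the ranges overlapped in both polarizations. Of these markers 4 of 12 fell, S100a8 by 1.16 ± 0.32 (adjusted p = 0.013), and without the 2 WT libraries none passed. Erythroid and megakaryocyte markers, Pf4 among them, summed to 35.8 to 73.5 CPM in knockout M1 against 111 to 175 in WT M1, and 3 of 11 fell. The M2 sums overlapped, at 47.2 to 124 CPM in knockout libraries against 122 to 190 in WT libraries. Pf4 (mean 59.7 CPM) is a large part of these sums, so they are not separate from its fall reported above. Among B and plasma cell markers 2 of 12 fell, among T and NK cell markers 1 of 14 rose and 1 fell, and of 10 mast cell and basophil markers none passed. Some endothelial genes, picked after their values were seen and so given without a count, were higher in the knockouts: Cdh5, the adherens junction cadherin of endothelium, had 2872, 4517 and 2732 in the M1 PGRN knockout and 6035, 3794 and 3452 in the M1 14-3-3ε knockout, against 1802, 1656 and 1155 in WT M1. In M2 Cdh5 had 2043, 3677 and 2428 in the PGRN knockout and 3828, 2304 and 2072 in the 14-3-3ε knockout, against 1672, 1069.8 and 673 in WT, and it rose by 1.31 ± 0.22 (adjusted p = 6.7e-04). Kdr, the receptor VEGFR2, rose by 1.14 ± 0.15 (adjusted p = 1.0e-04), Tie1 by 1.13 ± 0.21 (adjusted p = 0.0013) and Pecam1 by 0.89 ± 0.22 (adjusted p = 0.0077). The 14 endothelial genes summed to 510 to 1152 CPM in knockout M1 against 265 to 571 in WT M1, and to 483 to 823 CPM in knockout M2 against 207 to 459 in WT M2. The M1 ranges overlapped and the M2 ranges did not. Because the genes were picked after their values were seen, neither these sums nor the p-values test endothelial genes as a group. Replicate 2 of the PGRN knockout and replicate 1 of the 14-3-3ε knockout were the highest Cdh5 libraries of their groups in both polarizations. Of 6 genes that differ between mouse substrains, 4 rose: beside Nlrp1b, these were Wdfy1 (1.54 ± 0.15, adjusted p = 8.2e-06), Nnt (0.34 ± 0.08, adjusted p = 0.0051, with 0.08 and 0.03 in the PGRN knockout) and Casp4 (0.18 ± 0.06, adjusted p = 0.024). The part of substrain in the results was not tested.

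**Figure D5:**
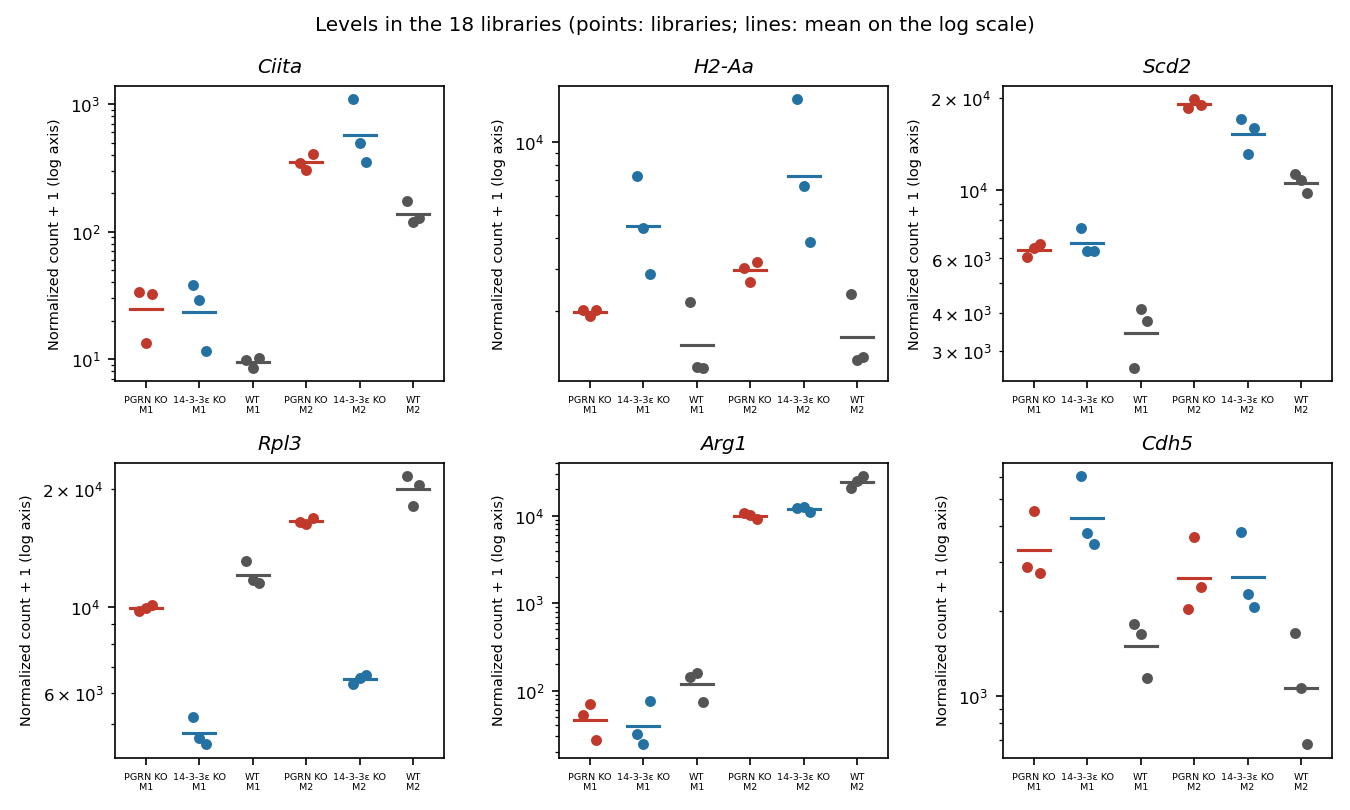
Normalized count plus 1 (log axis) in each library for 1 gene of each of 6 groups: Ciita and H2-Aa of antigen presentation, Scd2 of lipid synthesis, Rpl3 of the ribosome, Arg1 of the IL-4 response and Cdh5 of endothelium; the PGRN knockout is red, the 14-3-3ε knockout blue and WT grey, and lines are means on the log scale of 3 libraries. Rpl3 lies lowest in the 14-3-3ε knockout, and Arg1 in M2 lies at 9184 to 12444 in the knockouts against 20598 to 28534 in WT.

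Within M1 alone, 4875 genes passed both knockouts against WT (22.8%), 2856 higher (13.4%) and 2019 lower (9.46%), and within M2 alone 2736 (12.8%), 1552 higher (7.27%) and 1184 lower (5.55%), or 1569 higher and 710 lower when libraries were scaled by their totals. These counts rested on single WT libraries: without WT M1 replicate 1, 2662 passed in M1, and without WT M2 replicate 1, 987 passed in M2. The difference between the M1 and the M2 shift passed for 28 genes (0.131%), and 2353 had an unadjusted p under 0.05. That count was 9 without WT M2 replicate 1, 138 without WT M1 replicate 2, 117 without WT M1 replicate 1, 76 with the length trend removed and 298 with genotype and replicate number as a random block. Tagap was the 1 named rise or fall among them. Set against each other over both polarizations, PGRN knockout and 14-3-3ε knockout cells differed at 6574 genes (30.8%), 3353 higher (15.7%) and 3221 lower (15.1%) in the PGRN knockout; when libraries were scaled by their totals instead, the split was 1785 higher and 5172 lower. Of the 5132 genes on one side of WT in all 4 groups, 1521 also passed the test between the knockouts, as did 4 of the 14 named rises and 11 of the 14 named falls.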

How the data were processed

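RNA from 18 libraries was measured by RNA-seq. The authors deposited log2 values of normalized counts plus 1, made with STAR, RSEM 1.3.1 and DESeq2, per the submitters' processing notes, which name GRCh38 as the build although the gene identifiers are mouse. All values above 0 could be turned back into whole reads within 0.1 of a whole number (100.0% in each library), which gave the depths. Genes reaching a normalized count of 1 in 3 or more libraries (21336) were fitted with limma 3.58.1 (R 4.3.3, trend and robust options) with 6 group means, and p-values were adjusted over all of them by Benjamini-Hochberg at 0.05. Differences are on the log2(normalized count + 1) scale, knockout minus WT, and understate changes of low genes. CPM was computed from the recovered reads. The fit was tested on simulated data, but no result of that test is given here, so no conclusion on these libraries is drawn from it. Named genes are the 14 largest rises and 14 largest falls among genes of at least 5 CPM on one side of WT in all 4 knockout groups, without overlap in either polarization and with no predicted, clone or pseudogene symbol, and the members of each list with the smallest p. The members and lists were chosen with earlier results of these data known. Transcript lengths are of the longest GENCODE M21 transcript, and the length trend is a lowess curve of fraction 0.3. Replicate numbers were not used as pairs. Values of some list members are not reported here.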

Additional observations from a re-analysis of the deposited data

Results flagged for a closer look

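For 2 of the genes named in the analysis the shared shift differed between M1 and M2 by a test of the difference itself (limma, Benjamini-Hochberg adjusted). Tagap differed by -1.86 ± 0.31 (adjusted p = 0.022), with both knockouts minus WT at 0.52 in M1 and 2.37 in M2. Psat1, which encodes an enzyme of serine synthesis, differed by 0.74 ± 0.10 (adjusted p = 0.0074), with 0.55 in M1 and -0.18 in M2. No group had more than 3 libraries, so single libraries far from their group were not tested for.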

How the results depend on the processing

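The replicate block (same-numbered libraries as a block) gave 6979 genes for both knockouts against WT, 5172 on one side in all 4 groups and 218 in each comparison, within 1.5 times of the counts reported. This block joins libraries across genotypes, and same-numbered libraries of different genotypes had a median correlation of -0.05, against 0.34 within a genotype. Its counts therefore do not test sharing between M1 and M2 of a genotype. M1 and M2 libraries of a genotype and number correlated by over 0.1 in 6 of 9 pairs (all 3 of the 14-3-3ε knockout, 2 of the PGRN knockout and 1 of WT), so a shared source was not shown for every pair and remains possible. High Xist marked the same replicate numbers of WT and the 14-3-3ε knockout in M1 and M2. The main fit takes the 18 libraries as independent. Where M1 and M2 of a number share a source, its p-values for both knockouts against WT can be too small. With genotype and number as a random block instead, 5806 genes passed for both knockouts. Counts moved by over 1.5 times as follows. At 5 CPM in 3 libraries, 260 genes passed in each comparison and 84 for the difference between M1 and M2. With both knockouts of a polarization as one group, 4098 passed for both knockouts, 1785 in M1, 262 in M2 and 10 for that difference. Precision weights gave 3123 in M1 and 12 for the difference. Thinning all libraries to the shallowest gave 89, 2936 in M1 and 1780 in M2. Without WT M1 replicate 2 and WT M2 replicate 3, which held most reads resembling ribosomal RNA, 269 passed in each comparison and 75 for the difference. With the length trend removed these were 95 and 76, and with length and GC 95 and 81. Without WT M1 replicate 1 and WT M2 replicate 1, 2927 passed in M1. Genotype and number as a random replicate block gave 298 for the difference, and M1 and M2 averaged gave 4485 for both knockouts. At an adjusted p of 0.01 the counts were 4108 for both knockouts, 3299 on one side, 29 in each comparison, 1993 in M1, 878 in M2 and 7 for the difference. Leaving out 1 library gave 5543 to 7756 for both knockouts, 4148 to 5787 on one side, 70 to 469 in each comparison, 2662 to 6354 in M1, 987 to 4618 in M2, 9 to 138 for the difference and 5755 to 7692 between the knockouts. Scaling by library totals split the genes passing in each comparison into 103 higher and 47 lower, and those in M2 into 1569 higher and 710 lower. Of 896 values of the 28 rises and falls, 893 kept their side of the threshold; Grn with both knockouts as one group (adjusted p = 0.099), and Ciita (0.075) and Fam221b (0.052) with precision weights, did not. The 28 had been chosen for large differences without overlap in the same libraries, so this count does not measure how stable other genes are. Klrb1c turned to 0.0379 when thinned, and Tnfrsf1a to 0.0104 with the length trend and 0.0301 with length and GC trends removed. Apart from the thinning, which lowers depth by construction, and the stricter threshold, the cause was not tested. The alternatives on length, the 2 first WT libraries, the random block and the averaging were chosen after seeing the data.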
